A study of Mus musculus with 12 samples.

Results

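The genes described here encode the proteins of the cytosolic ribosome. They are the rows of the count table whose Ensembl identifier has a mouse symbol of the form Rpl or Rps and a number, with or without a closing a, l or x, together with the stalk genes Rplp0, Rplp1 and Rplp2 and with Rpsa, leaving out pseudogene symbols and the Rps6k kinases. The rule found 79 genes among the 15754 of the table, of which 44 belong to the large subunit, 32 to the small subunit and 3 to the stalk. A further 4 annotated genes that fit the rule (Rpl3l, Rpl10l, Rpl32l and Rpl39l) have no row in the table, and all 79 passed the filter on low counts. GENCODE lists 77 of the 79 as protein-coding, Rpl6l as a processed pseudogene and Rps4l as a transcribed processed pseudogene.

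Total RNA was sequenced from white adipocytes (fat cells) differentiated in culture from the stromal vascular fraction of epididymal fat, the part of the tissue that is not fat cells and that holds their precursors. The donors of all 12 libraries were wild-type male C57BL/6 mice, 8 weeks old and fed chow. All cultures were induced with rosiglitazone, insulin, dexamethasone and IBMX, transfected with RNAiMAX on day 4 with a negative control, a let-7d-5p mimic or a let-7e-5p mimic, and harvested on day 7. Each group has 4 libraries. By the form of their identifiers they fall into a first series (replicates 1 and 2 of each group) and a second series (replicates 3 and 4), a split for which the labels give no reason. Whether replicates came from different cultures or animals is not stated, and a p-value here reflects variation among these libraries only, which may be technical. Totals ran from 15071299 to 33396316 counts per library, and the first principal component, with 92.0% of the variance, separated the series.

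A cytosolic ribosome joins a small subunit, which binds the message and decodes it, with a large subunit, which forms the peptide bond and carries the exit tunnel. Each subunit holds 1 copy of nearly every protein, while the acidic stalk proteins that recruit elongation factors are present in several copies. Messages of ribosomal proteins are among the most abundant in growing cells. In mammals most of them begin with a C followed by a run of pyrimidines, the terminal oligopyrimidine (TOP) tract, through which mTOR and the binding protein LARP1 control their translation and stability. MicroRNAs of the let-7 family repress messages that pair with bases 2 to 8 of the microRNA, the seed.

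The sequences of both microRNAs are shown because the question put to these genes with the mimics is whether their messages carry a matching site. The mature mouse sequences are those of RefSeq, with the seed in capitals; the labels name the mimics without a sequence.
mmu-let-7d-5p: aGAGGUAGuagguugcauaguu
mmu-let-7e-5p: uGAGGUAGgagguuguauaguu
Both have the same seed, which pairs with CTACCTC in a message. The longest annotated 3' UTR of each coding gene was searched on the message strand (GENCODE, GRCm38.p6). All 77 coding genes of the ribosome have a 3' UTR, from 28 to 4728 bases long with a median of 173 bases, against a median of 1178 bases over 13109 genes of the table. The site was present in 2 of the 77 (2.6%), and in 1387 of the 13109 genes (10.6%), whose 3' UTRs are longer. Rpsa, a small subunit protein that is also known as the laminin receptor precursor, was among them. Its site and 8 bases on either side are given as they read in the message, with the paired bases in capitals.
Rpsa: agatccttCTACCTCcagattgg
The Rpsa site begins at base 315 of its 3' UTR. Rpl3 carries 1 such site within its coding sequence. A match of letters is a description and does not show that the microRNA binds there.

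Ribosomal protein genes differed far more between the series than with either mimic. Their genes took 1.91% and 1.63% of all counts in control replicates 1 and 2. The share was 1.59% in both let-7d libraries of the first series, and 1.57% and 1.63% in the let-7e libraries. In the second series it was 5.35% and 5.14% in the controls, 5.77% and 5.52% with let-7d, and 5.34% in both let-7e libraries. Every library of the second series therefore lay above every library of the first, with means of 5.41% ± 0.21 and 1.65% ± 0.13 (SD, n = 6 each). Within the first series control replicate 1 stood above the other 5 libraries. The large and small subunits moved alike between the series. Large subunit genes went from 0.767% ± 0.051 to 2.53% ± 0.10 of all counts, and small subunit genes from 0.714% ± 0.058 to 2.39% ± 0.10. The ratio of large to small subunit counts was 1.08 ± 0.023 in the first series and 1.06 ± 0.0077 in the second. In the first series it was 1.05 in both controls and 1.09 to 1.10 in the mimic libraries. In the second it ran from 1.05 to 1.07, and the groups overlapped.

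**Figure D1:**
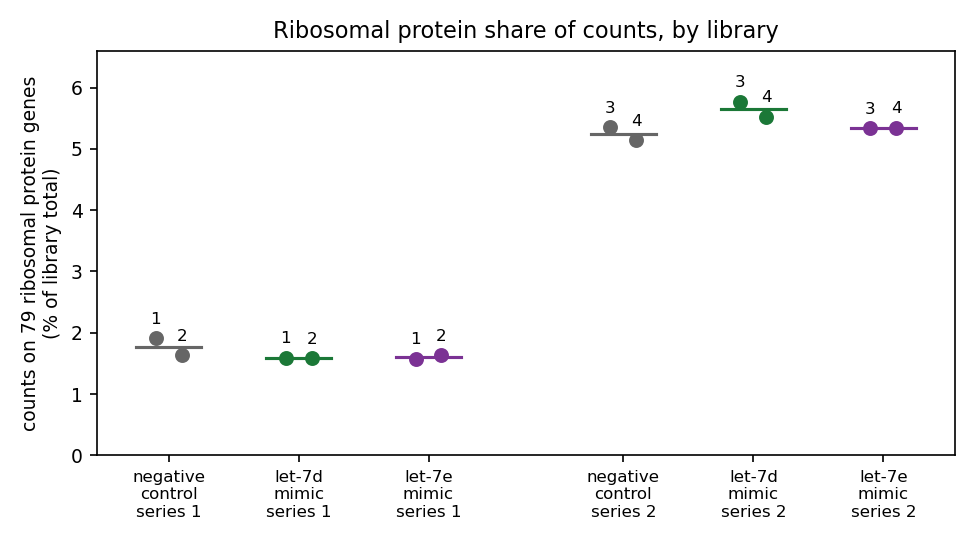
Share of each library's counts on the 79 ribosomal protein genes (y axis, percent of the library total), by group and series. Points are libraries with their replicate number and bars are means of 2 libraries; the second series sits between 5.14% and 5.77%, above the 1.57% to 1.91% of the first.

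Between the series, 78 of the 79 genes rose and none fell (edgeR, adjusted p under 0.05). The background is high in this comparison, since 41.7% of all genes were called higher and 40.0% lower, so the count alone says little. The sizes stand further from the background. The median log2 fold change of the 79 genes was 1.72, which is 3.30-fold, against a median log2 fold change of 0.028 over all genes. The median SE was 0.055 for the 79 genes and 0.069 over all genes. At least a 2-fold rise was called in 77 of the 79 genes and in 11.3% of all genes, and at least a 3-fold rise in 54 of the 79 and in 3.76% of all genes. All 6 libraries of the second series lay above all 6 of the first in 78 of the 79 genes and in 31.5% of all genes, and below them in none of the 79 and in 30.6% of all genes. The large subunit had a median of 1.74 over 44 genes, the small subunit 1.71 over 32, and the stalk genes 0.69, 1.43 and 1.77.

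The stalk gene Rplp0 (chromosome 5, 115559467 to 115563727, plus strand, GRCm38.p6) encodes the protein that anchors the stalk and is often used as a reference gene in quantitative PCR. Its level was 1137 and 946 CPM (library-scaled counts, with TMM factors) in control replicates 1 and 2, 865 and 839 CPM in the let-7d libraries, and 844 and 910 CPM in the let-7e libraries of the first series. In the second series it was 2428 and 2375 CPM in the controls, 2513 and 2507 CPM with let-7d, and 2452 and 2554 CPM with let-7e. The groups of 6 libraries did not overlap, and the log2 fold change of Rplp0 was 1.43 ± 0.063 (SE, edgeR adjusted p = 1.94e-12). In the first series every mimic library lay below both controls, and in the second let-7d and let-7e libraries all lay above both controls. Rplp1, an acidic stalk protein, rose by 1.77 ± 0.071, from 533 ± 86.2 to 1809 ± 68.5 CPM (SD, n = 6 each).

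Rplp2, the partner of Rplp1 in the stalk, had the smaller value of the pair. It ranged from 290 to 353 CPM in the first series and from 486 to 514 CPM in the second, which do not overlap. Its log2 fold change of 0.69 ± 0.045 (SE, edgeR adjusted p = 2.92e-10), or 1.61-fold, was the smallest among the 78 genes that rose. Because stalk proteins P1 and P2 act as pairs, the levels of both messages are given per length: Rplp1 had 1069 and 3624 CPM per kilobase of annotated transcript in the first and second series, and Rplp2 738 and 1189. Rplp2 thus went from rank 2 of the 79 genes to rank 20, while Rplp1 held rank 1. Rplp1 and Rplp2 share 60.0% and 65.0% of their 50-base windows with transcripts of other genes.

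Small subunit genes rose with a range of 1.25 to 2.14 on the log2 scale apart from Rps4l. Rps6, whose protein is phosphorylated by the S6 kinases downstream of mTOR, rose by 1.85 ± 0.056 (SE), from 100 ± 14.1 to 358 ± 11.2 CPM (SD, n = 6 each). The largest changes of the subunit were those of Rps29, a small zinc-binding protein, with 2.14 ± 0.080, and of Rps23, a protein of the decoding centre, with 2.12 ± 0.067. The smallest was that of Rps9, with 1.25 ± 0.053. Rpsa rose by 1.62 ± 0.058, from 374 to 522 CPM in the first series to between 1221 and 1316 CPM in the second. Rps27 rose by 1.84 ± 0.070 and its paralog Rps27l, which is known as a p53 target, by 1.46 ± 0.042.

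Rps4l was the exception among the 79 genes. Its annotated copy on chromosome 6 (148354656 to 148355598, plus strand) had 43.5 and 41.0 CPM in control replicates 1 and 2, 37.6 and 36.0 CPM with let-7d, and 36.8 and 34.6 CPM with let-7e. The second series gave 37.4 and 40.5 CPM in the controls, 40.0 and 39.2 CPM with let-7d, and 42.6 CPM in both let-7e libraries. The series overlapped, and the log2 fold change of Rps4l was 0.08 ± 0.055 (SE, edgeR adjusted p = 0.185). Without control replicate 1, or without control replicate 3, it passed the test and all 79 genes were called. Rps4x, the X-linked gene of the same protein family, had 290 to 366 CPM in the first series and 870 to 1017 CPM in the second, a log2 fold change of 1.57 ± 0.055.

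Large subunit genes rose by 1.12 to 2.24 on the log2 scale. Rpl39 (chromosome X, 37082520 to 37085402, minus strand), a very small protein that lines the exit tunnel, changed most of all 79 genes. It had 58.8 and 54.2 CPM in the controls of the first series, 45.8 and 50.6 CPM with let-7d, and 46.5 and 48.0 CPM with let-7e. Among the second series the controls had 254 and 237 CPM, the let-7d libraries 271 and 236 CPM, and the let-7e libraries 225 and 215 CPM. These sets of 6 were far apart, and the log2 fold change of Rpl39 was 2.24 ± 0.055 (SE, edgeR adjusted p = 2.81e-15), or 4.73-fold. Rpl24 followed with 2.23 ± 0.082, Rpl12, a protein at the base of the stalk, with 2.10 ± 0.062, and Rpl35a with 2.05 ± 0.052. The smallest changes of the large subunit were those of Rpl8 (1.12 ± 0.050), Rpl36 (1.17 ± 0.053) and Rpl7a (1.26 ± 0.047). Rpl3, which lies near the peptidyl transferase centre, rose by 1.71 ± 0.056, Rpl10, which joins the subunit late in its assembly, by 1.56 ± 0.047, and Rpl22 by 1.75 ± 0.056. Rpl5 and Rpl11, which bind MDM2 when the ribosome is not assembled properly, rose by 1.97 ± 0.058 and 1.83 ± 0.061.

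**Figure D2:**
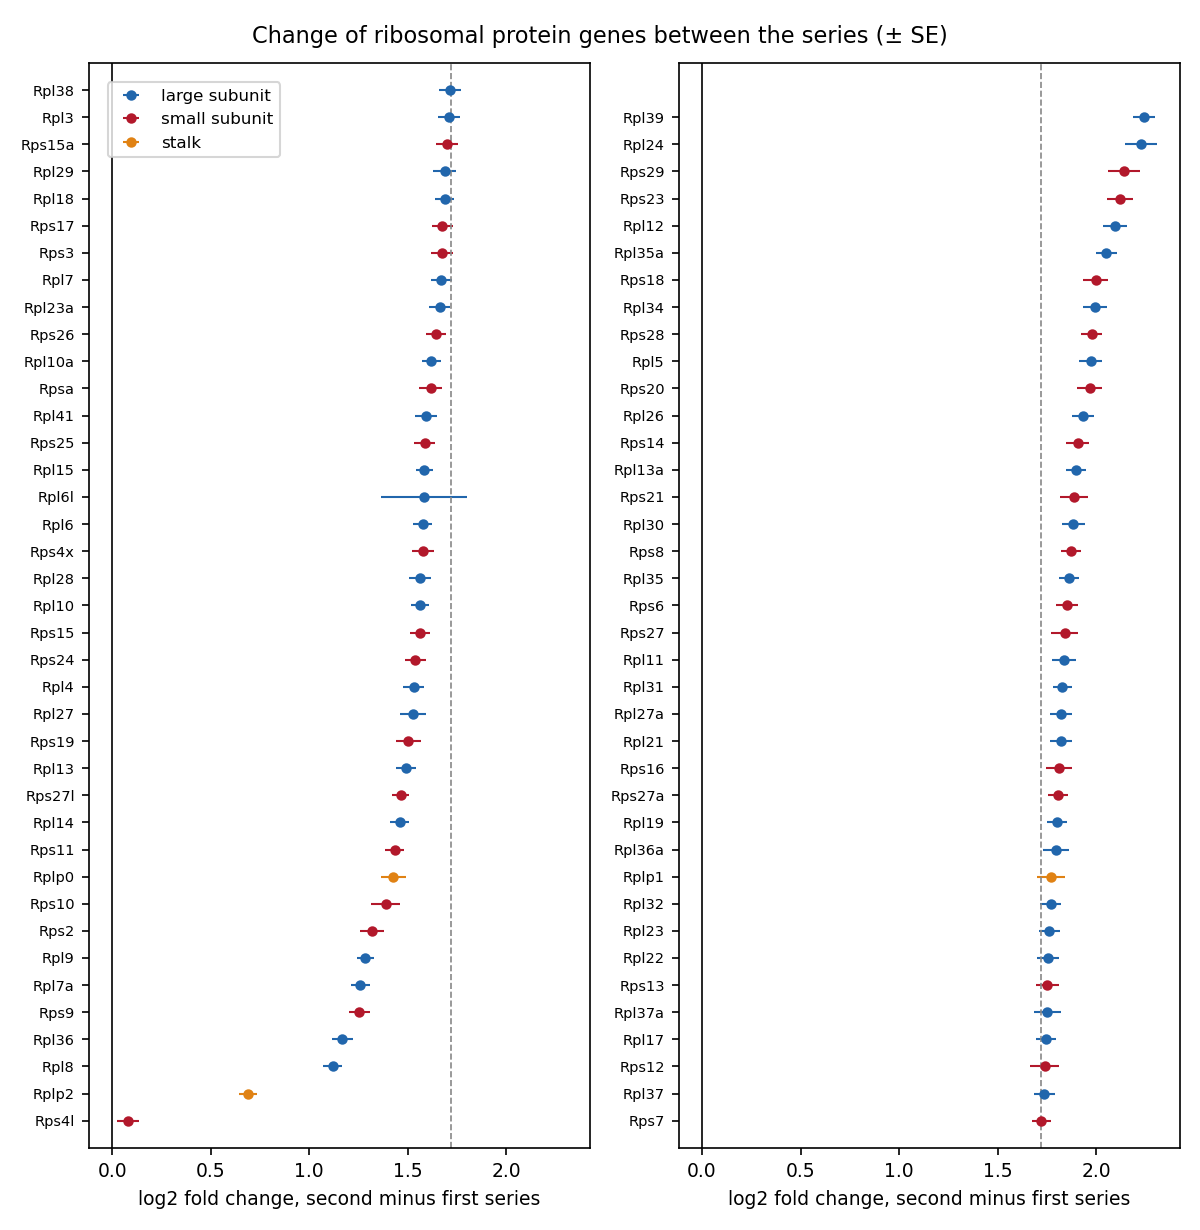
Log2 fold change of 77 of the 79 ribosomal protein genes, second minus first series (x axis), with its standard error, in order of size from lower left to upper right and coloured by subunit. The dashed line is the median of 1.72 over all 79; Rps4l at 0.08 and Rplp2 at 0.69 lie apart from the other genes, which run from 1.12 to 2.24.

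The order of the levels changed little between the series. Per kilobase of annotated transcript the median level was 255 CPM in the first series and 759 CPM in the second, and Spearman's rho of the levels in both series was 0.97 across the 79 genes. This is a description over genes, which are not replicates, and both axes share gene length and sequence. The lowest levels per kilobase in the first series were those of Rpl6l (0.502 and 1.51 CPM), Rpl24 (15.8 and 73.0 CPM) and Rps10, whose level before division by length was 5.97 and 15.7 CPM. In the second series Rps4l, with 42.8 CPM per kilobase, lay below Rpl24. Rpl6l and Rps10 were nevertheless 2.99-fold and 2.62-fold higher in the second series.

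**Figure D3:**
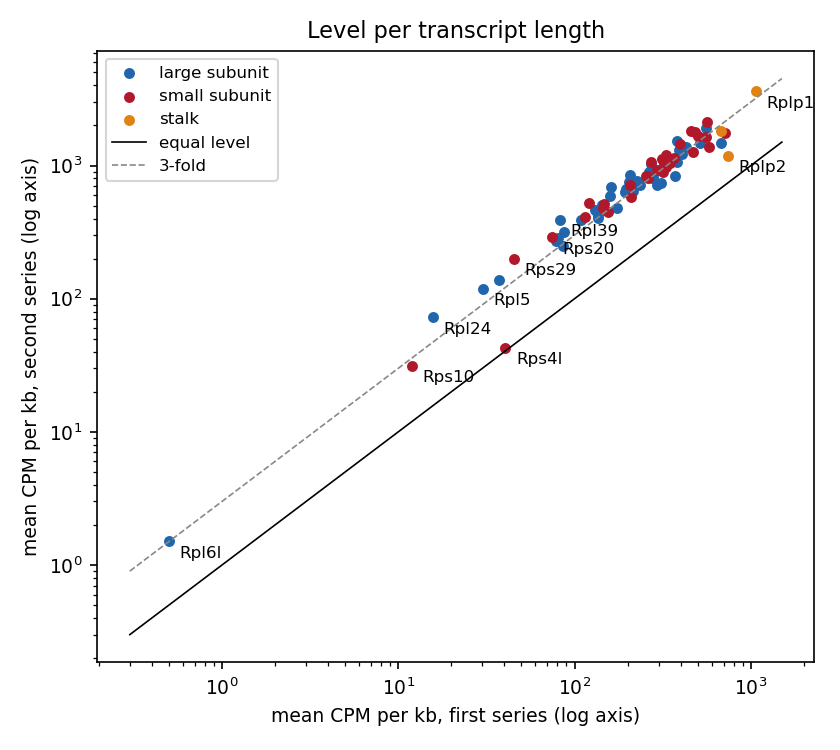
Mean level of each ribosomal protein gene per kilobase of annotated transcript in the first (x axis) and second series (y axis), both in CPM per kilobase on log axes. The solid line marks equal levels and the dashed line a 3-fold difference; most of the 79 genes follow the dashed line, while Rps4l lies on the solid line and Rplp2 below the dashed one.

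Ribosomal protein genes have many near-identical copies in the genome, and how the read counter treated reads that map to several places is not given in the sources used here. In transcripts of the annotation, 47 of the 79 genes shared at least 50% of their 50-base windows with a transcript of another gene, up to 98.6% in Rps27. Rps10 shared 92.4% of its windows and Rpl24 81.7%, so their low levels are uncertain. The genes that shared under 10% included Rps3 (2.96%), Rps20 (7.44%) and Rpl8 (7.86%). Their log2 fold changes between the series were 1.67, 1.97 and 1.12, against a median of 1.69 over the 47 genes that share most. Each percentage is taken over a representative annotated transcript. That of Rps20 is the longest of the 79 genes, so its low percentage can still stand for many shared windows. Rps3, a small subunit protein at the entry of the message channel, went from 557 ± 35.8 to 1778 ± 118 CPM (SD, n = 6 each). The 52 rows of ribosomal protein pseudogenes took only 0.0065% to 0.0078% of counts in the first series and 0.021% to 0.026% in the second. Of them 49 rose and none fell between the series, beside 41.7% of all genes called higher and 40.0% called lower. Their median log2 fold change was 1.72.

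Short messages moved up between the series outside the ribosome as well. Other protein-coding genes with a transcript of up to 500 bases had a median log2 fold change of 0.70 (94 genes), those of more than 500 and up to 1000 bases 0.60 (801 genes), and those over 5000 bases -0.44 (2190 genes). Ribosomal protein genes in the first 2 of these bins had medians of 1.75 (19 genes) and 1.70 (43 genes). At least a 2-fold rise was seen in 18 of the 19 and 42 of the 43 ribosomal genes, and in 29.8% and 25.6% of the other genes. Among longer ribosomal genes the 11 genes over 1000 and up to 1500 bases had a median of 1.76. The 4 genes over 1500 and up to 2000 bases had a median of 1.58. Rpl5 (2045 bases) changed by 1.97 and Rps20 (3706 bases) by 1.97. Lengths are those of a representative annotated transcript of each gene, which may differ from the message made in these cells. Split by GC content, the 27 genes lowest in GC had a median of 1.74, the 26 in the middle 1.76 and the 26 highest 1.62. RNA integrity and library preparation are not given per library, and their part in the result was not tested.

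The start of the message is shown for 5 genes because the TOP tract is the feature by which these messages are known to be controlled together. RefSeq (GRCm38.p6) gives start sites for 57 of the 79 genes, 68 in all. A tract, taken as a C at the start site followed by at least 4 bases that are C or T, on the strand of the gene, was found at 13 of the 68 starts (19.1%), against 2.41% of 13809 starts of genes in the table. Each sequence has 15 bases before the start and 15 from it, with the tract in capitals.
Rps6, chr4:86857353-86857382, minus strand: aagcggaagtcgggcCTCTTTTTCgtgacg
Rpl35, chr2:39005117-39005146, minus strand: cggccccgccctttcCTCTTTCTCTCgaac
Rpl35a, chr16:33056467-33056496, plus strand: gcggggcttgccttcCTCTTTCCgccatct
Rps27, chr3:90213634-90213663, minus strand: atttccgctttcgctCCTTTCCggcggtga
Rplp2, chr7:141447636-141447665, plus strand: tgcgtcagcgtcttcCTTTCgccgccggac
The 13 genes with a tract at a listed start had a median change between the series of 1.72 and a range of 0.69 (Rplp2) to 2.05 (Rpl35a). The 44 with a listed start and no tract there had a median of 1.70 and a range of 1.25 to 2.24. Listed starts can lie a few bases from the start used in these cells, so the absence of a tract at a start says nothing about the message.

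Most genes in 6 other lists of translation genes rose as well, with list medians from 0.54 to 1.71. The counts called in each list stand beside 41.7% of all genes called higher and 40.0% called lower. The 8 ribosomal protein genes outside the name rule, among them Rps3a1 and Rack1, all rose, with a median log2 fold change of 1.71. Rps3a1, a small subunit protein, rose by 1.81 ± 0.049 (SE) and Rack1, a scaffold protein on the small subunit, by 1.61 ± 0.048. Of 10 elongation factor genes 8 rose and 2 fell, with a median of 1.00. Eef1a1, which brings aminoacyl-tRNA to the ribosome and whose message has a TOP tract, rose by 1.30 ± 0.052, from 4064 ± 316 to 10016 ± 198 CPM (SD, n = 6 each). Of 16 other genes with known TOP messages 15 rose and 1 fell (median 0.88), Npm1 by 1.57 ± 0.049 among them. Of 11 small nucleolar RNA host genes 10 rose and none fell (median 1.32). The growth arrest gene Gas5 among them rose by 2.06 ± 0.063. Of 32 initiation factor genes 27 rose and 4 fell (median 0.54), and of 50 ribosome biogenesis genes 36 rose and 7 fell (median 0.61).

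Of 30 measured genes of the mTOR pathway and of TOP control, 11 rose and 15 fell, with a median log2 fold change of -0.066, beside 41.7% of all genes called higher and 40.0% lower. Mtor, the kinase itself, fell by 1.78 ± 0.051, from 98.5 ± 4.52 to 28.7 ± 2.70 CPM (SD, n = 6 each). Rptor, its partner in complex 1, fell by 1.26 ± 0.046, and Larp1, the TOP-binding protein, fell by 1.04 ± 0.053. Myc, a transcription factor that drives ribosome production, fell by 0.45 ± 0.055. The mitochondrial ribosome is made by other genes. Of its 79 measured proteins 55 rose and 13 fell, with a median of 0.32.

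Markers of fat cells moved the other way. All 17 measured adipocyte markers fell between the series, with a median log2 fold change of -3.26, and their summed level went from between 46948 and 54308 CPM to between 6825 and 9033 CPM. Adipoq, the defining adipokine, was present in every library, at 1276 to 1497 CPM in the first series and 336 to 521 CPM in the second. Of 12 precursor and fibroblast markers 7 rose and 5 fell, beside the 41.7% of all genes called higher and 40.0% called lower, and their sum went from between 26573 and 30861 CPM to between 15181 and 17626 CPM. Of 16 macrophage markers none rose and 15 fell, and of 8 smooth muscle markers 6 rose and 2 fell. The part of these cell markers in the change of ribosomal protein genes was not tested. In bulk RNA, fewer cells of a type and less RNA per cell cannot be told apart. The source of the difference between the series cannot be told apart from the series themselves, which differ in every library.

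**Figure D4:**
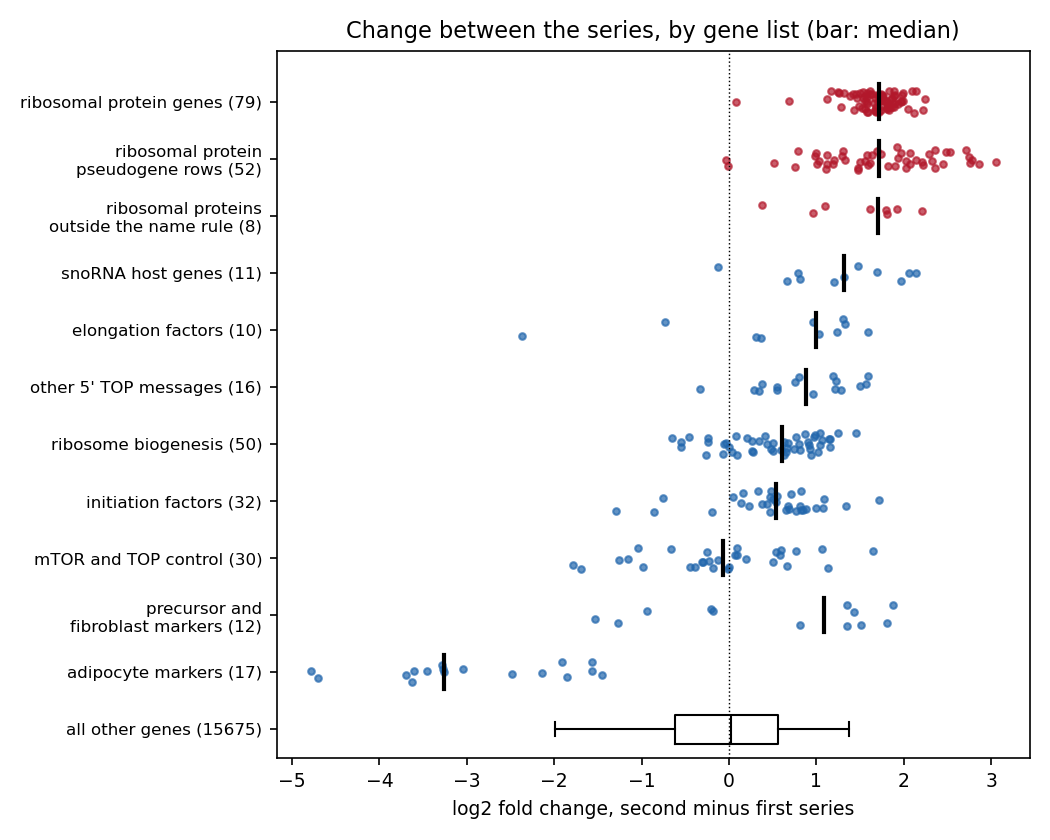
Log2 fold change between the series, second minus first (x axis), for the genes of each list (points, with the number of genes in brackets), with the median as a bar. The box for all other genes spans the quartiles and its whiskers the 5th to 95th percentile; the ribosomal lists lie near 1.7 and the adipocyte markers near -3.26.

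Both mimics were set against the negative control over both series to ask whether they changed messages of the ribosome. With let-7d 3 of the 79 genes fell and none rose (edgeR, adjusted p under 0.05), while 16.2% of all genes were called, 6.41% higher and 9.81% lower. The median log2 fold change was -0.074, or 0.950-fold, against -0.0022 over all genes, and 59 of the 79 were below 0. The genes that fell were Rps13, Rpl30 and Rps27a, a small subunit protein made as a fusion with ubiquitin. The largest positive values were those of Rpl6l (0.31 ± 0.26) and Rpl18 (0.17 ± 0.058), which did not pass.

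Rps13 (chromosome 7, 116331505 to 116334195, minus strand), a small subunit protein at the bridge between the subunits, fell with both mimics. It had 112 and 94.3 CPM in the controls of the first series, 74.5 and 76.0 CPM with let-7d and 76.4 and 76.2 CPM with let-7e. In the second series it had 299 and 324 CPM in the controls, 293 and 271 CPM with let-7d and 268 and 249 CPM with let-7e. In each series both mimics lay below both controls without overlap. The log2 fold change of Rps13 was -0.29 ± 0.069 with let-7d (SE, edgeR adjusted p = 0.00874) and -0.35 ± 0.069 with let-7e (edgeR adjusted p = 0.00449). Within the first series the let-7d value was -0.45 and within the second -0.13, and for let-7e -0.43 and -0.27. Rpl30, a large subunit protein, fell by 0.22 ± 0.069 with let-7d (edgeR adjusted p = 0.0374) and by 0.24 ± 0.069 with let-7e (edgeR adjusted p = 0.0384). Its let-7d value was -0.39 in the first series and -0.049 in the second, and its call was lost in 8 of the 12 fits that left out a library. Rps13 shares 83.0% of its 50-base windows with other transcripts and Rpl30 47.8%.

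With the let-7e mimic 5 of the 79 genes fell and 1 rose, while 9.50% of all genes were called, 3.81% higher and 5.69% lower. The median log2 fold change was -0.090, against -0.0019 over all genes, and 63 of the 79 were below 0. Rps29, Rps13, Rpl11, Rpl30 and Rpl23a fell, and Rpl18 rose.

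Rps29 (chromosome 12, 69157722 to 69159186, minus strand) changed most with let-7e. It had 21.8 and 21.4 CPM in the controls of the first series, 16.1 and 14.9 CPM with let-7d and 14.3 and 17.6 CPM with let-7e. In the second series it had 87.2 and 89.9 CPM in the controls, 90.8 and 67.9 CPM with let-7d and 69.1 and 61.4 CPM with let-7e. The let-7e libraries lay below the controls in both series, whereas let-7d replicate 3 lay above them. The log2 fold change of Rps29 was -0.44 ± 0.095 with let-7e (SE, edgeR adjusted p = 0.00783), with -0.44 in each series. With let-7d it was -0.28 ± 0.095 (edgeR adjusted p = 0.0546). Rpl11 fell by 0.27 ± 0.072 and Rpl23a, a protein near the tunnel exit, by 0.22 ± 0.063 with let-7e.

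Rpl18 (chromosome 7, 45715457 to 45720836, plus strand), a large subunit protein, rose with let-7e by 0.20 ± 0.058 (SE, edgeR adjusted p = 0.0408). It had 292 and 262 CPM in the controls of the first series, 295 and 283 CPM with let-7d and 294 and 311 CPM with let-7e. The second series gave 853 and 787 CPM in the controls, 1021 and 963 CPM with let-7d and 996 and 984 CPM with let-7e. The groups overlapped for let-7d in the first series only. The call for let-7e was lost in 9 of the 12 fits that left out a library, and 74.3% of the gene's windows are shared. Of the genes with a let-7 site in their message, Rpsa had values of -0.17 ± 0.070 with let-7d and -0.17 ± 0.070 with let-7e, and Rpl3, with its coding site, of -0.13 ± 0.067 and -0.10 ± 0.067. Neither gene passed the test with either mimic.

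Between the mimics no ribosomal protein gene was called (edgeR), while 0.152% of all genes were called. An unadjusted p under 0.05 was found in 0 of the 79 and in 1467 of all 15754 genes. DESeq2 and limma-voom called 0 of the 79 as well. The median difference of the 79, let-7d minus let-7e, was 0.016, and the widest was that of Rpl6l (0.18 ± 0.25), followed by Rps29 (0.16 ± 0.096). This does not show that the mimics act alike; the median SE was 0.066.

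With let-7d the median change of the ribosomal genes was below 0 in the first series and above 0 in the second, and with let-7e it was below 0 in the first and near 0 in the second. Within the first series 30 of the 79 genes fell with let-7d and none rose (of all genes 14.2% were called, 7.65% lower and 6.56% higher), with a median of -0.19 and 77 of 79 below 0. Within the second series 1 rose and none fell (of all genes 4.86% were called, 2.03% higher and 2.82% lower), with a median of 0.085 and 71 of 79 above 0. With let-7e 19 fell and none rose in the first series (of all genes 10.2% were called, 5.38% lower and 4.81% higher; median -0.17), and none was called in the second (of all genes 1.29% were called, 0.472% higher and 0.820% lower; median 0.027). In the second series 10 of the 79 had an unadjusted p under 0.05 with let-7e and 13 with let-7d. The same count over all genes was not taken, so these counts have no background beside them. Both let-7d libraries lay below both controls in 60 of the 79 genes in the first series and in 2 of the 79 in the second. The share of all genes was 27.6% in each series. The let-7d libraries lay above both controls in none of the 79 in the first series (27.0% of all genes) and in 35 in the second (22.8% of all genes). Both let-7e libraries lay below both controls in 50 of the 79 in the first series (27.0% of all genes) and above them in 1 (24.8% of all genes). In the second series they lay below in 16 (21.7% of all genes) and above in 24 (20.4% of all genes), so the genes went both ways. The let-7e change of Rps29 was -0.44 in the first series and -0.44 in the second, and that of Rps13 was -0.43 and -0.27, both called in the first series only. In the interaction fit, which tests the difference of the responses, no gene of the 79 was called by edgeR for let-7d or let-7e (0.241% and 0.00635% of all genes called). The difference, second minus first series, was above 0 in 79 of 79 genes for let-7d with a median of 0.27. Of the 79, 49 had an unadjusted p under 0.05, against 2136 of all 15754 genes, whose median was -0.018. The median of the 79 was 0.16 without control replicate 1 (4 of 79 below 0) and 0.39 without control replicate 2. For let-7e the difference was above 0 in 77 of 79 with a median of 0.19. Here 25 had an unadjusted p under 0.05, against 1398 of all 15754 genes, whose median was -0.0018. The let-7e median of the 79 was 0.079 without control replicate 1 (15 of 79 below 0) and 0.30 without control replicate 2. Of the 79, DESeq2 called 13 and 1, where it called 1.24% and 0.317% of all genes. Limma-voom called 0 and 0 of the 79, where it called 0.102% and 0% of all genes.

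Control replicate 1, which had the highest share of ribosomal counts in its series, bears on these medians. Without it the median over both series was -0.0063 for let-7d and -0.0093 for let-7e, with 1 gene rising and 1 falling for let-7d and 1 rising and 2 falling for let-7e. Within the first series alone and without control replicate 1, 23 of the 79 fell and 2 rose with let-7d (median -0.085; 19.4% of all genes called), and 17 fell and 3 rose with let-7e (median -0.069; 16.3% of all genes called). Within the first series without control replicate 2, 69 fell with let-7d (median -0.29; 21.9% of all genes called) and 67 with let-7e (median -0.26; 17.6% of all genes called). These fits leave the control with 1 library, whose spread is taken from the other groups. Control replicate 1 also had the highest summed level of smooth muscle markers in its series, 4508 CPM against 2801 to 3420 CPM, and the lowest of adipocyte markers, 46948 CPM against 47897 to 54308 CPM. Over both series 4 of 8 smooth muscle markers fell with each mimic, and none rose, where 9.81% of all genes fell with let-7d and 5.69% with let-7e. With let-7d 3 of 16 macrophage markers rose, against 6.41% of all genes, and with let-7e none. The summed level of the macrophage markers with let-7d was 339 and 320 CPM in the first series, below the controls at 353 and 347 CPM. In the second series it was 150 and 64.6 CPM, above the controls at 39.1 and 27.3 CPM. Of 17 adipocyte markers 1 rose and 2 fell with let-7d, and 1 rose and 1 fell with let-7e, shares near those of all genes. Precursor and fibroblast markers gave 4 rises and 2 falls of 12 with let-7d, and 3 rises and 2 falls with let-7e. That is 50% and 41.7% called, against 16.2% and 9.50% of all genes. The part of these markers in the mimic results was not tested. Within the second series the let-7d median was 0.13 without control replicate 3 and 0.037 without control replicate 4.

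**Figure D5:**
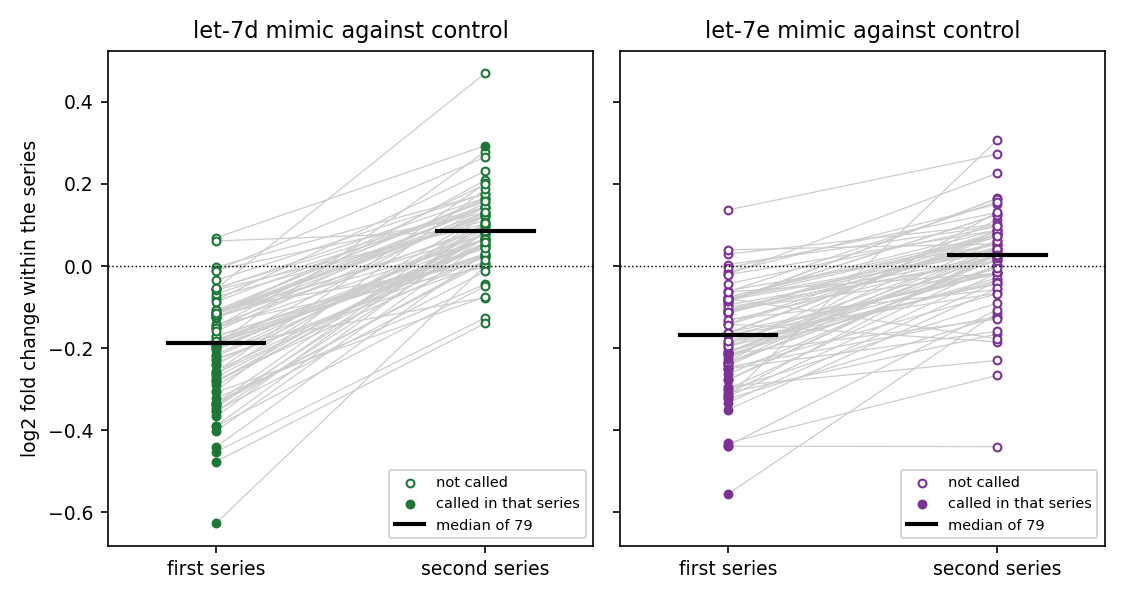
Log2 fold change of each ribosomal protein gene with the let-7d (left) and let-7e mimic (right) against control, fitted within each series (y axis); lines join the same gene and black bars are medians. Filled points passed the test in that series: 30 and 19 in the first series, all below 0, and 1 and 0 in the second.

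The other lists of translation genes are to be read beside the 16.2% of all genes called with let-7d and the 9.50% called with let-7e. Split by direction, 9.81% were called lower and 6.41% higher with let-7d, and 5.69% lower and 3.81% higher with let-7e. Of 10 elongation factor genes 1 rose and 1 fell with let-7d, and 1 rose with let-7e. Eef1a2, a form of the elongation factor best known from muscle and nerve cells, rose by 1.58 ± 0.19 and 1.05 ± 0.20 (SE). Among 16 other TOP messages 1 rose and 3 fell with let-7d, and 1 fell with let-7e. Eif4a2, a helicase of initiation, rose by 0.37 ± 0.063 with let-7d and was at 0.17 ± 0.063 with let-7e, while Nap1l1, a histone chaperone, fell by 0.22 ± 0.049 and 0.16 ± 0.049. Of 11 small nucleolar RNA host genes 2 rose with let-7d and 1 with let-7e, and none fell, with Snhg18 at 0.25 ± 0.065 and 0.24 ± 0.065. Initiation factors gave 8 falls of 32 with let-7d and 2 with let-7e, and no rise, with Eif4e2 at -0.32 ± 0.057 and -0.23 ± 0.057 (SE) and Eif3j1 at -0.23 ± 0.056 and -0.31 ± 0.056. Ribosome biogenesis genes gave 6 falls of 50 with let-7d, Bysl (-0.33 ± 0.067) and Rrp12 (-0.33 ± 0.085) among them, and no call with let-7e. In the mTOR list 8 fell and 1 rose with let-7d and 5 fell and 1 rose with let-7e. Mycl, a MYC family gene, fell by 1.02 ± 0.12 and 0.90 ± 0.12, and Rps6kb1, the S6 kinase that phosphorylates Rps6, fell by 0.32 ± 0.046 and 0.29 ± 0.046. Myc was at -0.27 ± 0.068 with let-7d (edgeR adjusted p = 0.0136) and -0.11 ± 0.067 with let-7e (edgeR adjusted p = 0.337). Among the ribosomal genes outside the name rule, Rps27rt, a retrotransposed copy, fell by 0.40 ± 0.13 and 0.53 ± 0.13. Of the 12 fits that left out a library, 10 lost the call of Nap1l1 with let-7e and 10 that of Rps27rt with let-7d. The calls of Snhg18 and Eif4e2 with let-7e were lost in 6 and 4 of them, and that of Rps27rt with let-7e in 3. Pseudogene rows gave 10 falls of 52 with let-7d and 11 with let-7e, with no rise and medians of -0.26 and -0.33. The median SE of these rows was 0.25 with each mimic, and all 52 together took at most 0.026% of a library's counts. Both mimic comparisons use the same control libraries, so their values are not independent of each other.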

How the data were processed

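RNA of 12 libraries was sequenced, 4 per group. The authors deposited whole-number gene counts, not normalized, with low-CPM genes removed, per the table's name. The submitters' processing notes name STAR and GRCm38.p6. Not given in the sources used here are which counter was used, whether it used strand and what it did with multi-mapped reads. A second deposited table, named RPKM, was not used, because its values imply different lengths of a gene in different libraries. Of 15754 identifiers 15736 were matched to symbols of GENCODE. Counts were scaled by TMM and tested with edgeR 4.0.16 (quasi-likelihood, group plus series, 8 residual degrees of freedom, R 4.3.3) over all genes, which filterByExpr kept. A gene was called at a Benjamini-Hochberg adjusted p under 0.05, two-sided. Responses of the series were compared by an interaction. DESeq2 1.42.0 and limma 3.58.1 were alternatives. The procedure was tested on simulated data. The ribosomal genes and the gene lists were chosen with earlier results of these data known. Named genes are the 4 largest changes each way with each mimic, 6 each way between the series, 3 each way between the mimics and a set of familiar members, and from each other list the 2 smallest p. Others named for their let-7 site, shared sequence, low level or call were added after their values were seen. Libraries of a group and series never matched within counting noise (chi-square per degree of freedom 2.37 to 10.2). Values of 2 of the ribosomal genes are not reported here singly, but they are counted in the totals.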

Additional observations from a re-analysis of the deposited data

Results flagged for a closer look

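In the first series control replicate 1 stood apart in 5 of 100 groups of libraries examined for a single distant value. Chance picks about 1 in 20 such groups. The gap between control replicate 1 and the next library, divided by the range of the 6 libraries, was 0.832 for the share of counts on ribosomal protein genes, 0.641 for Rplp0, 0.627 for Rplp1, 0.808 for Rpl8 and 0.633 for Rps27l; all passed Dixon's limit for 6 libraries. The values are from the same library and are not independent of each other.

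The share of counts on ribosomal protein genes moved in opposite directions with let-7d. In the first series both let-7d libraries lay below both controls, with means of 1.59% and 1.77%, and in the second both lay above, with means of 5.65% and 5.25%. The log2 ratio of let-7d to control was -0.15 in the first series and 0.11 in the second, a difference of 0.26, which was not tested for the share. Without control replicate 1 the first-series ratio was -0.036 and the difference 0.14, and without control replicate 2 they were -0.26 and 0.37.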

How the results depend on the processing

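The rise between the series was called in 77 to 79 genes in every alternative run for that comparison, without control replicate 1 or any other library included, and no named gene reversed there. The counts for the mimics, called in 3 genes with let-7d and 6 with let-7e, depended on the model. With let-7d they were 5 with RLE size factors, 1 from only the groups compared, 0 without the series term, 8 with DESeq2, 30 in the first series and 1 in the second. With let-7e they were 0 without the series term, 11 with DESeq2, 19 in the first series and 0 in the second. The interaction gave 13 calls for let-7d and 1 for let-7e with DESeq2, where 1.24% and 0.317% of all genes were called. Leaving out 1 library gave 1 to 9 calls with let-7d. The most, 9, came when let-7d replicate 3 was dropped, 6 when control replicate 4 was, and 1 for let-7d replicate 1, 2 or 4. With let-7e it gave 2 to 12 calls. There were 12 when control replicate 4 was dropped and 3 for control replicate 1 or let-7e replicate 3. There were 2 for control replicate 2 or let-7e replicate 1, 2 or 4. For the let-7d interaction it gave 0 to 10 calls, and between the series 78 to 79. The interaction calls were 10, 4 and 1 when control replicate 2, let-7d replicate 4 or control replicate 1 was dropped. Of all genes 0.381%, 1.14% and 1.39% were called in those fits, which leave 1 library of that group in its series.

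Chosen after seeing the data, fits within a series that also left out a control gave 25 (without control replicate 1) and 69 (without control replicate 2) calls with let-7d and 20 and 67 with let-7e in the first series, and 1 and 0 with let-7d (without control replicates 3 and 4) and 0 and 0 with let-7e in the second. Library totals without a scaling factor, also chosen afterwards, moved the median of all genes between the series to 0.10 and that of the ribosomal genes to 1.79. Apart from that of Rpl6l with let-7e, values that turned sign were small. In the first series with let-7d they were those of Rpl17 (-0.0022), Rps10 (-0.011) and Rpl6l (-0.055). With let-7e in the first series they were those of Rpl13 (-0.015), Rps10 (-0.020) and Rpl6l (-0.32). In the second series with let-7d Rpl24 turned sign (0.00068). Rpl6l with let-7e ran from -0.065 to 0.24 over fits that left out a library. The cause was not tested. The share of the second series was 5.80% with the ribosomal genes outside the name rule.

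Replicate numbers were checked for pairing: deviations of same-numbered libraries correlated between -0.20 and 0.015 in the first series and between 0.13 and 0.47 in the second. Not every pair was over 0.1, and the labels give no shared source, so the numbers were not taken as pairs of the design. Within the second series, where all were, a replicate block chosen after seeing the data gave 5 calls with let-7d, all higher, 3 with let-7e and 0 between the mimics, while 11.4% and 3.64% of all genes were called with let-7d and let-7e. With a replicate block in place of the series term, 4 genes were called with let-7d, 6 with let-7e and 0 between the mimics. Low counts limit Rpl6l, whose SE was 0.26 with let-7d.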
